A study of Mus musculus with 12 samples.

Results

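The 5 genes described here are the triggering receptors expressed on myeloid cells Trem1 and Trem2, the lectin receptor Clec5a, and the adaptors Tyrobp, which encodes DAP12, and Hcst, which encodes DAP10. They were chosen by name from the 20551 genes of the count table, all 5 were found in it, and all 5 were among the 13729 genes that passed the filter on low counts. Airway macrophages (AMs) came from C57BL/6 mice, 6 weeks old and female by the study's methods, that either carried the Scnn1b transgene (Scnn1b-Tg) or were wild-type (WT) littermates. The transgene is driven by the club cell secretory protein promoter in airway epithelium, not in macrophages, and these mice develop mucus obstruction. Each pool of 3 to 4 animals was divided between 12 h in medium and 12 h with 100 ng/ml lipopolysaccharide (LPS) of Pseudomonas aeruginosa, which gave 12 RNA-seq libraries in 4 groups of 3: WT medium and WT LPS (pools 16, 17 and 18), and Scnn1b-Tg medium and Scnn1b-Tg LPS (pools 17, 18 and 19). The labels describe adherent lavage cells and the study's sequencing methods describe cells sorted from digested lungs, so the isolation is not certain.

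TREM receptors have a short intracellular tail that cannot signal alone, and they reach the cell surface and signal through DAP12, a small adaptor whose immunoreceptor tyrosine-based activation motif (ITAM) recruits the kinase Syk. DAP10 carries a different motif that recruits phosphoinositide 3-kinase and Grb2, and it can sit in the same receptor complexes. TREM-1 is known as an amplifier of inflammatory signalling in neutrophils and monocytes, TREM-2 as a lipid and lipoprotein receptor of tissue macrophages that restrains cytokine production and aids the uptake of dying cells, and CLEC5A as a DAP12-coupled lectin that senses glycans of viruses and other microbes.

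Trem1 and Trem2 belong to 1 gene cluster on mouse chromosome 17, where both are transcribed from the plus strand (mm10, GENCODE M21: Trem1 chr17:48232768-48246924, Trem2 chr17:48346401-48354147). Trem3, Treml4 and Treml2 lie between them. Tyrobp (chr7:30413760-30417585, plus strand) and Hcst (chr7:30417712-30419854, minus strand) face each other on chromosome 7, with 126 bases between their 3′ ends. Clec5a is on chromosome 6 (chr6:40574894-40585821, minus strand). No exon of the 5 genes overlaps an exon of another annotated gene, but counting ignored strand, so a read running past either 3′ end could not be assigned to Tyrobp or Hcst by its direction.

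The 250 bases upstream of the start of Trem1, Trem2, Clec5a and Hcst are shown because the 2 TREM genes moved in opposite directions with LPS. They were taken from RefSeq (GRCm38.p6), are written in the direction of the gene, and end at the base before its RefSeq start. For Trem1 and Clec5a that start differs from the GENCODE position given above. Tyrobp had no entry. Capitals mark matches, on either strand, to AGGAAG (a core bound by ETS factors such as PU.1) or TGANTCA (AP-1). The intervals are chr17:48232489-48232738 for Trem1, chr17:48346151-48346400 for Trem2, chr6:40585806-40586055 for Clec5a and chr7:30419855-30420104 for Hcst.
Trem1: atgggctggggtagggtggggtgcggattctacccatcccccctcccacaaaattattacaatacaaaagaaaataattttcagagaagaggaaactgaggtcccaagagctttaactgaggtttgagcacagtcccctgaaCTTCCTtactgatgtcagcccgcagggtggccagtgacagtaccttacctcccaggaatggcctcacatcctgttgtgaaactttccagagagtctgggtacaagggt
Trem2: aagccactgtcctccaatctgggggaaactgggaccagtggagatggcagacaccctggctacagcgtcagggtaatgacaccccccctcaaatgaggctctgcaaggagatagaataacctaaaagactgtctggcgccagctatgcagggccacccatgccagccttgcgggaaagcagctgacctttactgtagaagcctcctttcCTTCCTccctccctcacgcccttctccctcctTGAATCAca
Clec5a: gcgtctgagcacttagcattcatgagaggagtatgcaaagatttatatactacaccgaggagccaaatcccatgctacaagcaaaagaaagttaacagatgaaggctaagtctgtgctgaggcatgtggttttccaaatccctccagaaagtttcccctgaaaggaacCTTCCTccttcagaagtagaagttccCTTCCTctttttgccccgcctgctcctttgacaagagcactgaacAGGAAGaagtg
Hcst: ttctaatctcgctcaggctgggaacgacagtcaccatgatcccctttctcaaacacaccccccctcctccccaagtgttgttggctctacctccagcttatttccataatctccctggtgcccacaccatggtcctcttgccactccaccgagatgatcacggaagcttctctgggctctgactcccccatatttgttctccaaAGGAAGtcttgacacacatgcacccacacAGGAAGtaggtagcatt
AGGAAG was found in all 4 windows, once in Trem1, once in Trem2, 2 times in Hcst and 3 times in Clec5a, and in 29.6% of 32536 distinct upstream windows of the same length. TGANTCA was found only in Trem2 among the 4, at bases -9 to -3 from the start, and in 6.73% of all windows. No match to the NF-kB consensus (3.92% of all windows), to TTGCNNCAA for C/EBP (1.75%) or to GAAANNGAA, part of an interferon response element (7.15%), lay in the 4 windows, which says nothing of sites elsewhere.

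The libraries held 48.2 to 60.9 M deposited counts and 14918 to 16165 genes with at least 1 count. Values are counts scaled to library size (CPM) with TMM factors, as mean ± SD with n = 3 libraries per group. All 14 airway macrophage markers had means above 1 CPM in every group, but Siglecf, a defining surface lectin of these cells, fell from 115 ± 5.13 CPM in medium to 11.1 ± 2.4 CPM with LPS in WT AMs. Of the 14 markers, 10 fell and 2 rose with LPS in WT AMs (median log2 fold change -1.65), and 11 fell and 2 rose in Scnn1b-Tg AMs (-1.91). Those that rose were the scavenger receptor Marco and the carbonic anhydrase Car4, and the call of Marco in WT was lost without the WT medium library of pool 18 or the WT LPS library of pool 17. The part of this change in the responses of the 5 genes was not tested. Scnn1b itself lay between 0 and 0.755 CPM in every library. The 4 libraries of the pools numbered 17 stood apart by gene length. Against their group means, the median of 1987 short genes (exons under 1500 bases) minus that of 5065 long genes (over 5000 bases) was -0.22 and -0.41 on the log2 scale in WT medium and WT LPS, and -0.15 and -0.37 in Scnn1b-Tg medium and LPS, compared with -0.02 to 0.27 in the other 8. This touches Tyrobp and Hcst, whose transcripts are short. Trem2, with a principal transcript of 1088 bases, also lay below its group means in pool 17. It deviated by -0.28 and -0.48 in WT medium and LPS, and by -0.30 and -0.36 in Scnn1b-Tg medium and LPS. Clec5a (858 bases) deviated both ways there, from -0.26 to 0.09. The LPS responses of Tyrobp, Hcst and Trem2 are therefore also given without the pool 17 LPS library, with the pool 17 medium library kept.

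**Figure D1:**
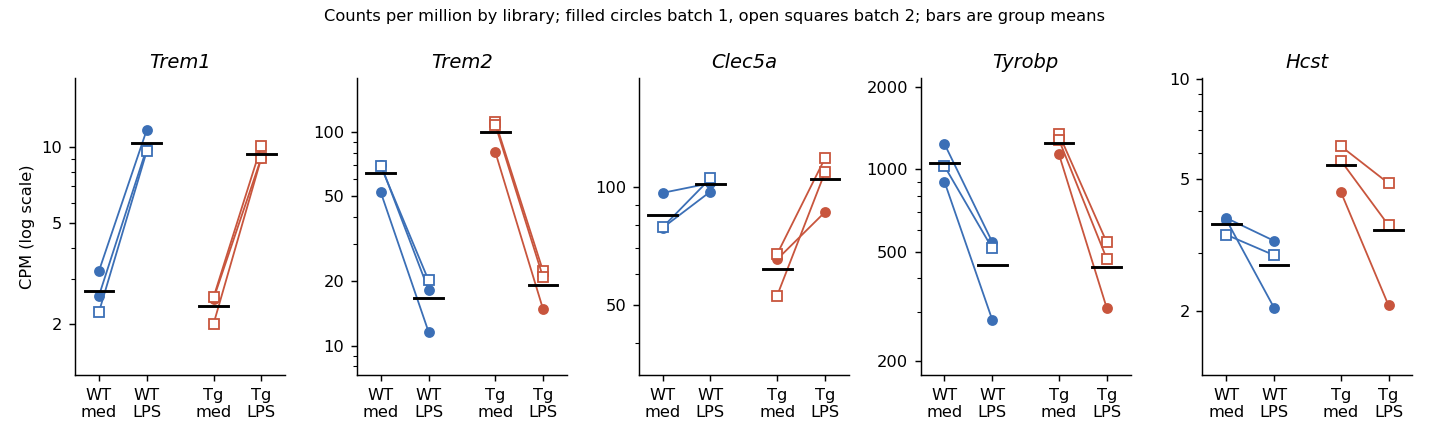
CPM of the 5 genes in each of the 12 libraries, on log axes that differ between panels. Lines join the medium and LPS libraries of 1 pool, blue is WT and red is Scnn1b-Tg. Filled circles are batch 1 and open squares batch 2, and black bars are group means. Trem1 rose and Trem2 and Tyrobp fell in all 6 pools; Clec5a rose from a lower level in the Scnn1b-Tg pools.

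The first comparison asked how AMs of each genotype changed with LPS. Trem1 rose about 4-fold and Trem2 fell about 4-fold in WT and 5-fold in Scnn1b-Tg AMs, Tyrobp fell in both genotypes, Clec5a rose in Scnn1b-Tg AMs, and the fall of Hcst did not pass the test in either. In WT AMs 3 of the 5 genes passed the test (adjusted p under 0.05, edgeR quasi-likelihood test with Benjamini-Hochberg adjustment over all genes tested), 1 higher and 2 lower. Of all genes tested, 30.9% passed, 15.2% higher and 15.7% lower. In Scnn1b-Tg AMs 4 of 5 passed, 2 higher and 2 lower, against 36.7% of all genes, 18.8% higher and 17.8% lower. So large a share of the transcriptome responded that a call by itself does not set a gene apart.

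Trem1, the inflammatory amplifier, was the receptor with the lowest count. In WT medium it stood at 3.24, 2.59 and 2.23 CPM in pools 16, 17 and 18, and in WT LPS at 11.7, 9.92 and 9.65 CPM. In Scnn1b-Tg medium the values were 2.52, 2.55 and 2.00 CPM in pools 17, 18 and 19, and in Scnn1b-Tg LPS 9.09, 10.1 and 9.07 CPM. Every LPS library lay above every medium library, and neither genotype stood out under LPS. The fitted log2 fold change was 1.96 ± 0.15 (SE, adjusted p = 4.8e-06, edgeR) in WT and 2.00 ± 0.15 (adjusted p = 2.9e-06) in Scnn1b-Tg AMs, which are 3.89-fold and 4.01-fold rises. By pool the log2 change ran from 1.84 to 2.16. The medium libraries rested on 107 to 181 deposited counts, and these counts may be coarser than they look. Of the 47985 values between 1 and 30 in the table, 55.3% left a remainder of 0 or 3 when divided by 5, where an even spread gives 40%. How many counts 1 read pair was worth was not tested.

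Trem2, the lipid-sensing receptor, moved the other way. It stood at 70.5, 52.2 and 69.4 CPM in WT medium and at 18.2, 11.6 and 20.2 CPM in WT LPS. In Scnn1b-Tg medium it was 80.4, 111 and 108 CPM, and in Scnn1b-Tg LPS 14.8, 22.3 and 20.9 CPM. The medium and LPS ranges were far apart in both genotypes, and the lowest value of each group was that of pool 17. The log2 fold change was -1.96 ± 0.17 (adjusted p = 8.4e-06, edgeR) in WT and -2.37 ± 0.17 (adjusted p = 1.6e-06) in Scnn1b-Tg AMs, a 3.88-fold and a 5.19-fold fall. Without the pool 17 LPS library of the genotype concerned the values were -1.79 and -2.31.

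Because the 2 TREM genes moved against each other, their balance shifted further than either gene alone. Per length of the principal transcript (2993 bases for Trem1, 1088 for Trem2), Trem1 made up 1.52% ± 0.33 of the sum of the pair in WT medium and 19.1% ± 4.46 in WT LPS. In Scnn1b-Tg AMs the share went from 0.873% ± 0.23 to 15.3% ± 2.52. Trem2 thus remained the more abundant of the 2 transcripts per length in all 12 libraries, LPS included.

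Clec5a, the lectin receptor, responded less. WT medium libraries held 96.6, 78.6 and 78.9 CPM and WT LPS libraries 102, 97.3 and 105 CPM. Scnn1b-Tg medium libraries held 65.3, 67.4 and 52.8 CPM and Scnn1b-Tg LPS libraries 86.2, 118 and 109 CPM. Within each genotype the LPS libraries were all higher than the medium libraries, by a small gap in WT. The log2 fold change was 0.26 ± 0.14 (adjusted p = 0.19, edgeR) in WT, which did not pass, and 0.75 ± 0.14 (adjusted p = 0.0014), a 1.69-fold rise, in Scnn1b-Tg AMs. By pool it was 0.08, 0.31 and 0.41 in WT and 0.40, 0.81 and 1.04 in Scnn1b-Tg AMs. The Scnn1b-Tg libraries lay below the WT libraries in medium and overlapped them under LPS.

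Tyrobp, the ITAM adaptor that both TREM receptors and CLEC5A use, fell. It stood at 1241, 902.5 and 1029 CPM in WT medium and at 543, 282 and 515 CPM in WT LPS. In Scnn1b-Tg medium it was 1135, 1346 and 1283 CPM, and in Scnn1b-Tg LPS 311, 541 and 471 CPM. The medium libraries were all above the LPS libraries, and pool 17 was again the lowest of its group in all 4 groups. The log2 fold change was -1.26 ± 0.23 (adjusted p = 0.0018, edgeR), a 2.39-fold fall, in WT and -1.53 ± 0.23 (adjusted p = 0.00040), a 2.88-fold fall, in Scnn1b-Tg AMs. Without the pool 17 LPS library of that genotype it was -1.03 (adjusted p = 0.0034) and -1.36 (adjusted p = 0.0030). With an offset per library for gene length, an alternative chosen after seeing the data, it was -1.30 ± 0.13 and -1.52 ± 0.13.

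Hcst, the adaptor that couples to phosphoinositide 3-kinase, was scarce. WT medium libraries held 3.81, 3.77 and 3.4 CPM and WT LPS libraries 3.26, 2.05 and 2.95 CPM. Scnn1b-Tg medium libraries held 4.57, 6.28 and 5.68 CPM and Scnn1b-Tg LPS libraries 2.08, 4.85 and 3.62 CPM. The WT groups did not overlap, but the Scnn1b-Tg groups did, since pool 18 under LPS exceeded pool 17 in medium. The log2 fold change was -0.43 ± 0.25 (adjusted p = 0.24, edgeR) in WT and -0.67 ± 0.25 (adjusted p = 0.056) in Scnn1b-Tg AMs. All 6 pools fell, by 0.20 to 1.12 on the log2 scale. The Scnn1b-Tg value passed once each pool was matched with itself: with the pool as a fixed term it was -0.71 ± 0.20 (adjusted p = 0.022, edgeR with a replicate block). Leaving out single libraries moved it both ways. Without the Scnn1b-Tg LPS library of pool 17, which stood apart by gene length, it was -0.42 (adjusted p = 0.22, edgeR). The WT value without the WT LPS library of pool 17 was -0.29 (adjusted p = 0.50, edgeR). Both fits kept the pool 17 medium libraries, which stood apart in the same direction. Matched by pool, the changes were -0.37 and -0.64 in Scnn1b-Tg pools 18 and 19, and -0.23 and -0.20 in WT pools 16 and 18. The Scnn1b-Tg value passed without the WT LPS library of pool 16 (-0.67, adjusted p = 0.041) and without the Scnn1b-Tg LPS library of pool 18 (-0.92, adjusted p = 0.019). Hcst counts were 0.307% to 0.896% of Tyrobp counts, and what share of them, if any, ran on from the neighbouring Tyrobp was not tested.

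Non-overlap of the 3 medium and the 3 LPS libraries was found for 5 of 5 genes in WT, against 38.7% of all genes tested, and for 4 of 5 in Scnn1b-Tg AMs, against 43.8%.

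Levels of different genes can be set side by side only per length. In WT medium, CPM per kilobase of the principal transcript was 1880.0 ± 304 for Tyrobp, 98.7 ± 12.0 for Clec5a, 58.8 ± 9.42 for Trem2, 8.28 ± 0.52 for Hcst and 0.898 ± 0.17 for Trem1. In Scnn1b-Tg medium Tyrobp stood at 2220.0 ± 192, Hcst at 12.5 ± 1.96 and Trem1 at 0.787 ± 0.10. There Trem2 (91.8 ± 15.6) had the higher mean than Clec5a (72.1 ± 9.22), with 73.9 as the lowest Trem2 and 78.6 as the highest Clec5a library, so the pair overlapped. Under LPS the order was Tyrobp, Clec5a, Trem2, Hcst and Trem1 in both genotypes, with no overlap between neighbours at the principal transcripts. The gap between Hcst and Trem1 depends on the transcript of Trem1. At its shortest protein-coding form of 2077 bases, its means would have been 5.02 in WT LPS and 4.54 in Scnn1b-Tg LPS. The lowest Hcst libraries there were at 4.63 and 4.7. The place of Clec5a depends on its transcript: at its longest protein-coding form of 3747 bases, in place of 858, it would have been at 22.6 in WT medium, below Trem2. Tyrobp exceeded the 3 receptors together 11.8 ± 0.49 times in WT medium and 5.72 ± 1.57 times in WT LPS, and 13.5 ± 0.51 and 5.42 ± 0.63 times in Scnn1b-Tg AMs. With the longest Clec5a transcript these ratios were 22.8 and 17 in WT, and 20.5 and 15.8 in Scnn1b-Tg AMs, so the size of the drop depends on which transcript is used. In a bulk sample a smaller share of cells with a transcript and less of it per cell cannot be told apart.

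**Figure D2:**
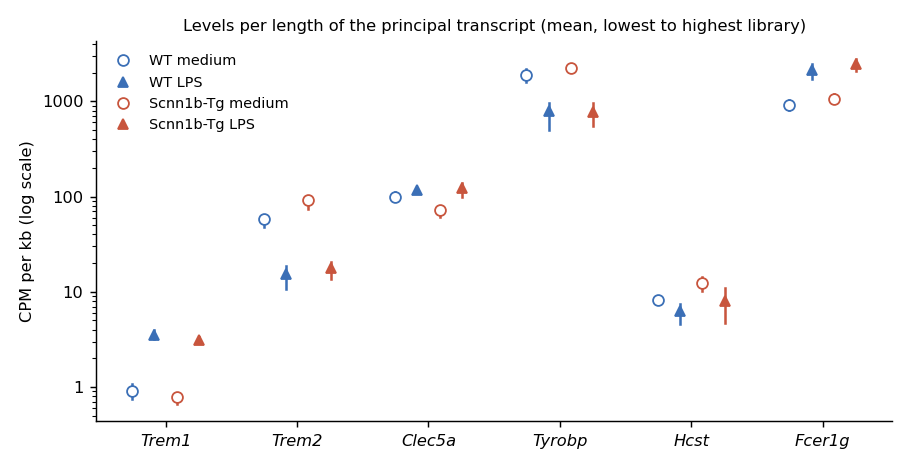
CPM per kilobase of the principal transcript, on a log axis, for the 5 genes and Fcer1g. Symbols are group means and lines run from the lowest to the highest of 3 libraries; circles are medium, triangles LPS, blue WT and red Scnn1b-Tg. Tyrobp lay above Fcer1g in medium and below it with LPS.

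FcRgamma, encoded by Fcer1g, is the other ITAM adaptor of macrophages and serves Fc receptors and the lectin Mincle. It rose while DAP12 fell. In WT AMs Fcer1g stood at 619 ± 72.1 CPM in medium and at 1444 ± 256 CPM with LPS, and in Scnn1b-Tg AMs at 705 ± 83.8 and 1663 ± 238 CPM. The log2 fold changes were 1.22 ± 0.15 (adjusted p = 0.00011, edgeR) and 1.24 ± 0.15 (adjusted p = 7.1e-05). Per length, Fcer1g stood at 0.492 ± 0.02 of Tyrobp in WT medium and at 2.82 ± 0.55 in WT LPS, and at 0.470 ± 0.04 and 3.24 ± 0.50 in Scnn1b-Tg AMs. The highest medium library was at 0.511 and the lowest LPS library at 2.45, so the more abundant of the 2 ITAM adaptor transcripts switched with LPS in all 6 pools.

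The neighbours of Trem1 and Trem2 in the cluster did not move as a block. Of 7 listed genes, 4 were in the table, 3 were tested, and 2 rose and 1 fell in each genotype, with a median log2 fold change of 1.72 (WT) and 2.16 (Scnn1b-Tg), compared with 0.00 and -0.02 over all genes tested. Trem3, another DAP12-coupled receptor next to Trem1, rose in WT AMs from 1.91 ± 0.36 to 8.54 ± 2.85 CPM (log2 fold change 2.16 ± 0.29, adjusted p = 0.00021, edgeR) and in Scnn1b-Tg AMs from 1.58 ± 0.53 to 10.2 ± 1.26 CPM (2.70 ± 0.29, adjusted p = 3.5e-05). Treml4, a TREM-like receptor that also marks monocyte subsets, rose from 57.4 ± 11.1 to 189 ± 20.8 CPM (WT) and from 33.7 ± 7.34 to 152 ± 32.5 CPM (Scnn1b-Tg). Treml2, between Treml4 and Trem2, fell in WT AMs from 2.01 ± 0.26 to 0.961 ± 0.16 CPM, a log2 fold change of -1.07 ± 0.26 (adjusted p = 0.0097, edgeR) that did not pass without the WT LPS library of pool 18 (adjusted p = 0.055). In Scnn1b-Tg AMs it fell from 4.13 ± 0.49 to 1.1 ± 0.35 CPM (-1.91 ± 0.26, adjusted p = 0.00019). Treml1, beyond Trem2, held at most 5 counts in any library and was not tested. B430306N03Rik, between Treml2 and Trem2, did not pass: it stood at 39.3 ± 5.24 CPM in medium and 37.9 ± 23.3 CPM with LPS in WT (adjusted p = 0.54, edgeR), and at 56.0 ± 10.1 and 43.0 ± 16.3 CPM in Scnn1b-Tg AMs (adjusted p = 0.15). In order along the chromosome, Trem1, Trem3 and Treml4 rose, Treml2 and Trem2 fell, and B430306N03Rik between the latter pair passed in neither direction.

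**Figure D3:**
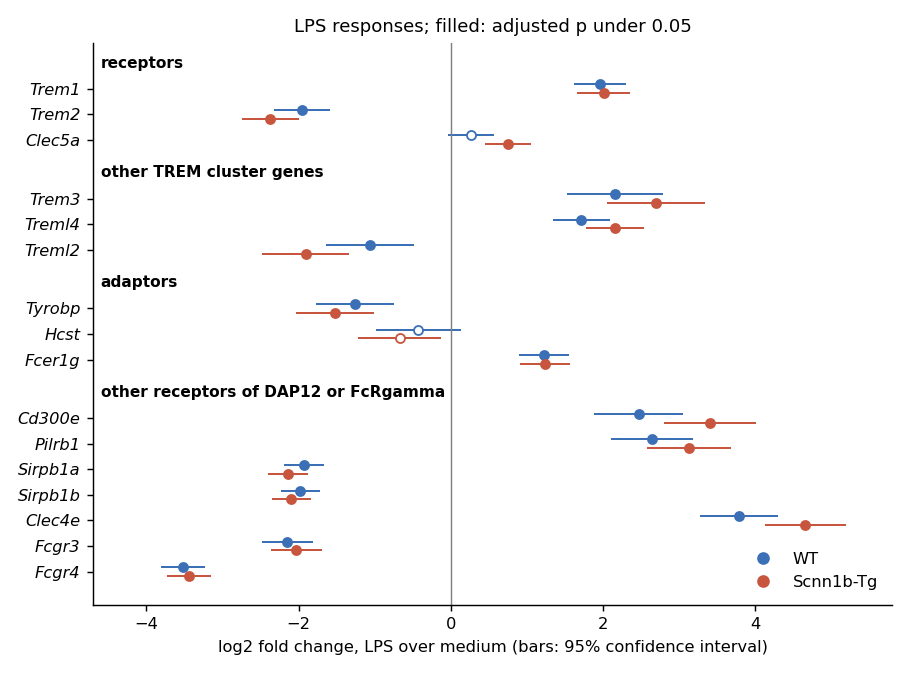
Fitted log2 fold changes of LPS over medium with 95% confidence intervals, for WT (blue) and Scnn1b-Tg (red); filled symbols have an adjusted p under 0.05. Genes are grouped as receptors, other genes of the TREM cluster, adaptors with Fcer1g, and receptors of DAP12 or FcRgamma with the largest rises and falls among those detected in medium. Each group holds both rises and falls.

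Other receptors that depend on the same adaptors also went both ways. Of 18 listed receptors of DAP12 or DAP10, 14 were in the table and 10 were tested. Of these, 3 rose and 6 fell in WT, and 3 rose and 5 fell in Scnn1b-Tg AMs, with medians of -0.52 and -0.50. Beside these counts and those of the other lists, 15.2% of all genes tested rose and 15.7% fell in WT. In Scnn1b-Tg AMs these shares were 18.8% and 17.8%. The largest rises were those of Pilrb1, an activating paired receptor (2.64 in WT and 3.13 in Scnn1b-Tg AMs), and Cd300e, an activating receptor of monocytes (2.47 and 3.41). The largest falls were those of Sirpb1a (-1.93 and -2.14) and Sirpb1b (-1.98 and -2.09), activating members of the signal regulatory protein family. Pilrb1, Sirpb1a and Sirpb1b have near-identical relatives, and Pilrb1 and Sirpb1b overlap antisense genes, so the reads counted for them are uncertain. The natural killer receptors Klrk1, Klrc2 and Klrd1 were at or near 0 and not tested.

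Of 14 genes listed for FcRgamma and its receptors, 13 were in the table and 11 were tested. Of these, 4 rose and 5 fell in WT, and 5 rose and 5 fell in Scnn1b-Tg AMs, with a median of -0.19 and -0.20. The list also held Clec7a and Pirb, which are not FcRgamma-coupled activating receptors. Clec7a was among the falls in both genotypes (-0.95 and -1.21), so the counts are not those of FcRgamma partners alone. Clec4e, the lectin Mincle, rose by 3.79 ± 0.23 and 4.66 ± 0.24 on the log2 scale. Tarm1, a receptor that pairs with FcRgamma, was at 0 to 0.0611 CPM in the medium libraries and at 19.6 to 20.5 CPM in WT LPS and 33.4 to 48.6 CPM in Scnn1b-Tg LPS. Fcgr4 and Fcgr3, activating receptors for immunoglobulin G, fell by 3.52 and 2.15 in WT and by 3.44 and 2.03 in Scnn1b-Tg AMs. The partners of the adaptor that rose therefore also included genes that fell.

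Downstream, Syk, the kinase recruited by both ITAM adaptors, rose in WT AMs from 443 ± 70.3 to 1014 ± 239 CPM (a 2.29-fold rise, adjusted p = 8.1e-05, edgeR) and in Scnn1b-Tg AMs from 456 ± 36.5 to 1030.0 ± 192 CPM (2.24-fold, adjusted p = 7.4e-05); it was singled out after its values were seen. Of 29 listed ITAM signalling genes 28 were tested; 8 rose and 6 fell in WT and 10 rose and 9 fell in Scnn1b-Tg AMs, with medians of 0.00 and 0.07. With the pool as a fixed term, 13 rose and 9 fell in WT. The largest rises were those of the kinase Src (4.09 and 4.90) and the adaptor Lat (2.90 and 3.18). Tec, a kinase, fell by 1.14 in WT and by 1.65 in Scnn1b-Tg AMs. The adaptor Card9 fell by 0.74 in WT and by 0.53 in Scnn1b-Tg AMs. The exchange factor Vav2 fell by 1.26 in Scnn1b-Tg AMs, and its value in WT AMs was -0.70 (adjusted p = 0.071, edgeR).

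Of 20 genes listed as brakes on ITAM signalling 19 were tested; 5 rose and 7 fell in WT and 5 rose and 6 fell in Scnn1b-Tg AMs, with medians of -0.13 and -0.09. The 5 rises in WT became 2 without the WT medium library of pool 16 and 3 without the WT LPS library of pool 17 or 18, and the 7 falls became 4 without the WT medium library of pool 18. Inhibitory receptors were found at both ends. Siglece (4.25 and 5.19) and Pilra (1.62 and 2.16), the inhibitory counterpart of Pilrb1, rose; Pilra overlaps Zcwpw1. Cd300lf (-2.79 and -3.04) and Cd300a (-2.14 and -2.27) fell.

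Of 13 genes for TREM ligands and for proteins that bind or cut the receptors, 12 were in the table and 10 were tested; 4 rose and 3 fell in each genotype, with medians of 0.47 and 0.46. The tetraspanning proteins Ms4a7 (2.23 and 2.75) and Ms4a6d (2.12 and 2.39) rose most. Apoe, a lipoprotein that binds TREM-2 (-1.24 and -1.16), and Anxa1, an anti-inflammatory phospholipid-binding protein (-1.09 and -1.22), fell most. The calls of Apoe were lost under 8 of 23 alternatives in WT and 13 of 23 in Scnn1b-Tg AMs, with adjusted p up to 0.15 and 0.175 (edgeR and others), among them leaving out the WT LPS library of pool 16, 17 or 18 in either comparison.

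Genes often seen together with Trem2 in lipid-laden macrophages mostly fell with it. Of 20 such genes 19 were tested. Of these, 1 rose and 14 fell in each genotype, with medians of -0.67 in both, beside 15.7% and 17.8% of all genes lower with LPS. The airway macrophage markers also mostly fell, 10 of 14 in WT and 11 of 14 in Scnn1b-Tg AMs (medians -1.65 and -1.91). A fall with LPS was thus not particular to the genes seen with Trem2. Igf1, a growth factor, fell by 2.67 in WT and by 2.34 in Scnn1b-Tg AMs, and Fabp5, a fatty acid carrier, fell by 1.77 and 1.99. The gene that rose was Cst7, a protease inhibitor, at 0 to 0.056 CPM in medium and 0.729 to 2.18 CPM with LPS. In WT AMs the number that fell was 9 without the WT LPS library of pool 18, and 9 to 16 over all alternatives; in Scnn1b-Tg AMs it was 11 to 15. The list mixes genes of many functions, and it was drawn up with earlier results of these data known.

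**Figure D4:**
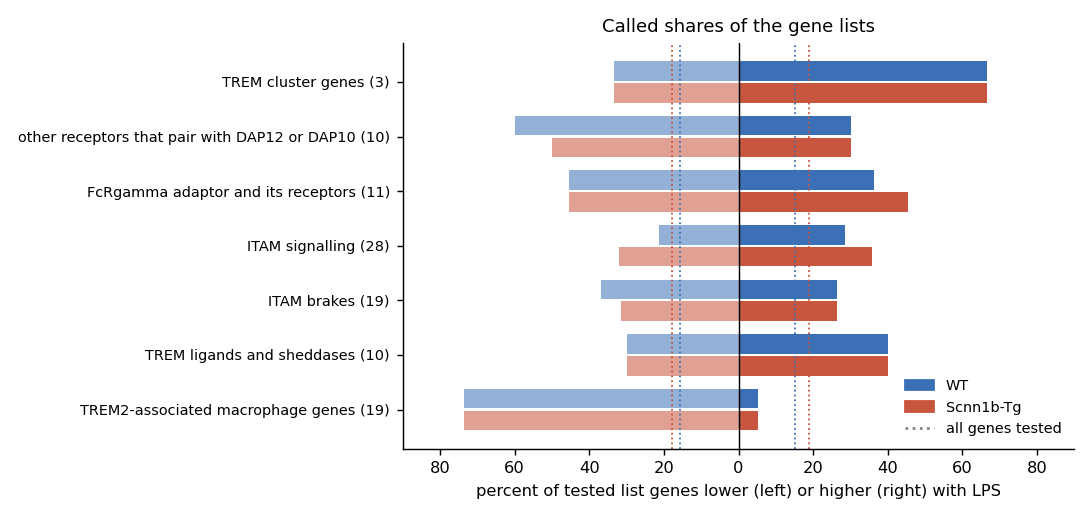
Share of the tested genes of each list that were higher (right) or lower (left, pale) with LPS at an adjusted p under 0.05, for WT (blue) and Scnn1b-Tg (red); the number tested is in brackets. Dotted lines mark the same shares over all 13729 genes tested. The genes associated with Trem2 lie mostly on the lower side.

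The next comparison asked whether Scnn1b-Tg and WT AMs differed after 12 h in medium without LPS. None of the 5 genes passed the test in medium (edgeR), against 0.262% of all genes tested. An unadjusted p under 0.05 was found for 2 of the 5 and for 1784 of the 13729 genes tested. DESeq2 and limma voom also called none of the 5. Under 1 of 23 alternatives, with the pool number in place of the batch, Trem2 passed (0.65, adjusted p = 0.025, edgeR). Trem2 was higher in all 3 Scnn1b-Tg medium libraries (99.9 ± 17 CPM) than in the WT ones (64.0 ± 10.2 CPM). The log2 difference, Scnn1b-Tg minus WT, was 0.49 (95% confidence interval 0.12 to 0.86, adjusted p = 0.25, edgeR). It was 0.41 within batch 1 and 0.66 within batch 2. Clec5a was lower in all 3 Scnn1b-Tg libraries (61.8 ± 7.91 against 84.7 ± 10.3 CPM). Its difference was -0.47 (-0.78 to -0.16, adjusted p = 0.20, edgeR), with -0.42 and -0.40 within the batches. Hcst was also higher in all 3 Scnn1b-Tg libraries (5.51 ± 0.87 against 3.66 ± 0.23 CPM), with a difference of 0.45 (-0.13 to 1.02, adjusted p = 0.52, edgeR), and 0.27 and 0.81 within the batches. Such non-overlap, in 3 of the 5 genes, was found for 18.4% of all genes tested. Trem1 (-0.14, -0.49 to 0.22) and Tyrobp (0.14, -0.38 to 0.66) overlapped between the genotypes. The summed airway macrophage markers moved with the genotype as well, at 12000.0 to 12900.0 CPM in WT and 14200.0 to 17600.0 CPM in Scnn1b-Tg medium libraries. Most of that sum was Chil3, a chitinase-like protein (9971 ± 396 against 12600.0 ± 1573 CPM), none of the 14 markers passed, and Marco and Krt79 had lower means in Scnn1b-Tg AMs; their part in the value of Trem2 was not tested.

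Of the gene lists, only 2 members passed in medium. Blnk, an adaptor downstream of Syk, was higher in Scnn1b-Tg AMs (4.66 ± 0.61 against 1.73 ± 0.76 CPM, log2 difference 1.34 ± 0.23, adjusted p = 0.047, edgeR). Lpl, the lipoprotein lipase, was lower (2856 ± 150 against 4031 ± 340 CPM, -0.52 ± 0.06, adjusted p = 0.010). The call of Blnk was lost under 17 of 23 alternatives, each WT medium library left out among them (adjusted p up to 0.27). That of Lpl was lost under 4 of 23, namely with only the 6 medium libraries and without WT pool 18, Scnn1b-Tg pool 17 or Scnn1b-Tg pool 19 in medium (adjusted p up to 0.14). In the TREM cluster, the differences of Treml2 (1.05 ± 0.26, adjusted p = 0.13, edgeR) and Treml4 (-0.68 ± 0.17, adjusted p = 0.14) did not pass.

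**Figure D5:**
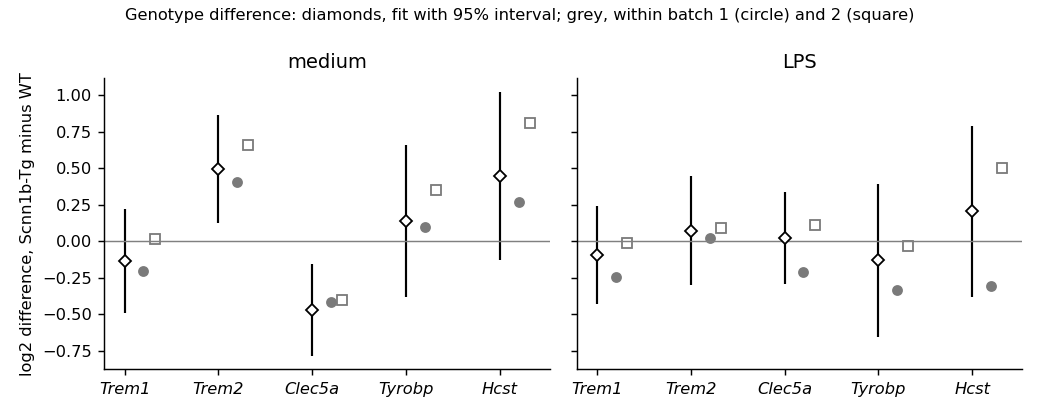
Log2 difference of the 5 genes, Scnn1b-Tg minus WT, in medium (left) and with LPS (right). Diamonds are the fitted differences with 95% confidence intervals and grey symbols the differences within batch 1 (circles) and batch 2 (squares). The intervals of Trem2 and Clec5a exclude 0 in medium only, before adjustment over all genes.

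In the LPS libraries the genotypes were compared in the same way. None of the 5 genes passed (edgeR, with DESeq2 and limma voom also calling none), against 0.051% of all genes tested. None had an unadjusted p under 0.05, where 931 of all genes tested did. All 5 overlapped between the genotypes, where 9.11% of all genes did not. The differences were -0.09 (-0.43 to 0.24) for Trem1, 0.07 (-0.30 to 0.45) for Trem2, 0.02 (-0.29 to 0.34) for Clec5a, -0.13 (-0.65 to 0.39) for Tyrobp and 0.20 (-0.38 to 0.79) for Hcst. For Clec5a and Hcst the sign differed between the batches (-0.21 and 0.11, and -0.31 and 0.50).

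The last comparison asked whether the LPS response itself differed between the genotypes, as the difference of the 2 log2 fold changes. None of the 5 genes passed, nor did any of the genes tested (0% of 13729, edgeR); 795 genes and 1 of the 5 had an unadjusted p under 0.05. DESeq2 called 77 genes and limma voom 0, none of the 5 among them. Clec5a was that gene: its rise was 0.49 larger in Scnn1b-Tg AMs (0.06 to 0.92, adjusted p = 0.79, edgeR). The value for Trem2 was -0.42 (-0.92 to 0.09, adjusted p = 0.91). For Trem1 (0.05, -0.42 to 0.52), Tyrobp (-0.27, -0.98 to 0.44) and Hcst (-0.24, -1.02 to 0.53) the intervals included 0. That Clec5a passed the LPS test in Scnn1b-Tg and not in WT AMs is therefore no shown difference between them.

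The genes whose pattern over the 12 libraries came nearest to each member were listed by the root mean square difference of gene-centred log2 CPM. For Trem1 these were Gm9845, a processed pseudogene (0.175), Cflar, an inhibitor of apoptosis (0.177), and Peli1, a ubiquitin ligase of Toll-like receptor signalling (0.191), while its neighbour Trem3 ranked 95th. For Trem2 they were Cdc42ep3 (0.200), Id3, an inhibitor of DNA binding (0.216), and Cracr2b (0.218), and Tyrobp ranked 89th. For Tyrobp they were Ebpl (0.129), Tm7sf2 (0.162) and Ech1 (0.199), of which Tm7sf2 encodes a sterol reductase and Ech1 an enzyme of fatty acid oxidation. For Hcst they were Fahd2a (0.177), Nenf (0.184) and Pigp (0.185). For Clec5a, which changed little, they were 3 pseudogenes, Gm13461 (0.107), Gm5555 (0.120) and Vdac3-ps1 (0.121), whose counts may include reads of their parent genes. The distances share the libraries' treatment, pool and depth, and they are a description only.

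Markers of other cells were followed because neutrophils and monocytes express Trem1 strongly. Of 10 neutrophil markers, 8 were in the table, and their sum ran in WT libraries from 20.7 to 24.2 CPM (medium) and 15.2 to 17.5 CPM (LPS), and in Scnn1b-Tg libraries from 27.3 to 37.8 CPM (medium) and 16.9 to 22.5 CPM (LPS). The sum was thus lower in every LPS library than in every medium library of its genotype. It rested on S100a8, Cxcr2, Csf3r, Mmp8 and Ltf, without which it was at most 0.475 CPM in any library. The list itself was divided: of 6 genes tested, 1 rose and 2 fell in WT, and 2 rose and 3 fell in Scnn1b-Tg AMs. S100a8, a calcium-binding protein abundant in neutrophils, rose from 2.87 ± 0.95 to 7.32 ± 1.71 CPM in WT (log2 fold change 1.35 ± 0.30, adjusted p = 0.0052, edgeR). In Scnn1b-Tg AMs it rose by 1.28 ± 0.29 on the log2 scale (adjusted p = 0.0051, edgeR). The chemokine receptor Cxcr2 fell by 4.40 in WT and fell by 4.99 in Scnn1b-Tg AMs. The granule gene Ltf varied from 0 to 7.11 CPM among the WT medium libraries. Of the other granule genes, S100a9 and Ngp reached at most 0.0951 CPM in any library. Camp was at 0 in all medium libraries and at 0 to 0.476 CPM with LPS; its rise passed in Scnn1b-Tg AMs (adjusted p = 0.022, edgeR) but not without pool 17, 18 or 19 under LPS or without pool 18 or 19 in medium. The 10 monocyte markers summed to 54.5 to 76.7 and 31.2 to 44.6 CPM in WT and Scnn1b-Tg medium and to 180 to 220 and 142 to 197 CPM with LPS. Without Treml4, which carries that list, the sums were 6.01 to 9.22 CPM in WT medium and 8.44 to 8.57 CPM in WT LPS. In Scnn1b-Tg libraries they were 4.74 to 7.02 CPM in medium and 7.91 to 13.2 CPM with LPS. Of 7 genes tested, 2 rose and 1 fell in WT, and 3 rose in Scnn1b-Tg AMs. Beside Treml4, Ms4a4c rose in both genotypes (log2 fold change 5.12 and 3.51), Vcan rose in Scnn1b-Tg AMs (2.70), and Ccr2 fell in WT (-2.52). The call of Vcan was lost under 3 of 21 alternatives and that of Ccr2 under 5 of 21. The dendritic cell sum (85.0 to 218 CPM in medium, 205 to 502 CPM with LPS) came from Bst2, an interferon-induced gene, and was at most 3.74 CPM without it. T and NK cell markers summed to at most 3.24 CPM and B cell markers to at most 1.89 CPM. Epithelial markers, led by Scgb1a1 and Sftpc, summed to 81.5 to 120 CPM in WT and 36.5 to 75.4 CPM in Scnn1b-Tg libraries, and the part of these other cells in the values of the 5 genes was not tested.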

How the data were processed

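RNA was sequenced from 12 libraries with the SMART-Seq v4 low-input kit as read pairs of 125 bp. The authors deposited estimated counts per gene: reads were aligned to mm10 with HISAT2 in unstranded mode, StringTie quantified GENCODE M20 transcripts, and a script of StringTie converted coverage to counts, deposited as whole numbers. Symbols and positions were taken from GENCODE M21 on the same build.

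The tests used edgeR 4.0.16 (R 4.3.3). After filterByExpr (count of at least 10, total of at least 15) and TMM scaling, quasi-likelihood models of the 4 groups plus batch were fitted to all 12 libraries. Batch 1 held WT 16, WT 17 and Tg 17, and batch 2 held WT 18, Tg 18 and Tg 19. The study's methods put the date of library preparation into the design. The labelled batches were taken to be those dates. Tests were two-sided, with Benjamini-Hochberg adjustment over the 13729 genes tested. Errors of fitted changes are standard errors, and intervals are 95% confidence intervals from the same fit. Changes by pool and within batches are differences of log2 CPM with a prior count of 2.

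Alternatives were other size factors, filters, DESeq2 1.42.0, limma 3.58.1 (voom), counts divided by 5, no batch term, only the groups compared, the pool as a block, each library left out, and an offset for gene length. A number marks the same pool of animals in medium and LPS, and deviations of same-pool libraries from their group means correlated at 0.137 to 0.335 over genes in all 6 pools. A pool is the replicate, with 3 per group. The p-values of the main fit rest on 1 estimate of the spread shared by all 12 libraries. That fit treats the medium and LPS libraries of a pool as separate. Counts from amplified reads without molecular identifiers carry counting error beyond what the intervals cover.

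The 5 genes were named in every comparison. Of each other list except the cell type markers, the 2 largest rises and 2 largest falls among genes that passed were named. The cluster neighbours, Fcer1g and the 3 genes most like each member were named as well. Of the cell type markers, only some of the genes that passed were named. The members and lists were chosen with earlier results of these data known. Of the listed genes, Trem5, Treml6, Trem4, Clec6a, Lilrb4a, Ncr1, Siglech, Siglec15, Klra8, Ms4a4a and some markers were not analysed here. The result of 1 other marker list is not reported here.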

Additional observations from a re-analysis of the deposited data

How the results depend on the processing

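Over 25 alternatives, 23 for each comparison, 565 of 575 refitted values of the 5 genes kept their side of the threshold; no call was lost and no called value changed direction. The exceptions were Hcst and Trem2. The fall of Hcst with LPS in Scnn1b-Tg AMs (-0.67, adjusted p = 0.056) passed with DESeq2 (-0.67, adjusted p = 0.036), limma voom (-0.70, adjusted p = 0.036), counts divided by 5 (-0.66, adjusted p = 0.041), only the 6 libraries of the 2 groups (-0.70, adjusted p = 0.038) and the offset for gene length chosen after seeing the data (-0.68, adjusted p = 0.011). Leaving out each library in turn gave -0.92 to -0.42. With a replicate block it also passed, at -0.70 (adjusted p = 0.012) with the pool as a random effect and at -0.71 (adjusted p = 0.022) with the pool as a fixed term; the block by pool changed no other call of the 5 genes. Across genotypes, pools 17 and 18 are different animals that share a number and a batch (their deviations correlated at 0.11 to 0.261). With the number in place of the batch as a replicate block, 1 of the 5 genes passed in medium, Trem2 (0.65 ± 0.09, adjusted p = 0.025). The cause was not tested.

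Counts over all genes moved more than those of the 5 genes. Over the alternatives, 4 to 501 genes were called between the genotypes in medium (36 in the analysis reported) and 1 to 146 with LPS (7), and 0 to 77 for the difference of the responses (0), the highest each time with DESeq2. The lowest medium count came without the Scnn1b-Tg library of pool 17 and the lowest LPS count without the batch term. Scaling by library totals without TMM put the median log2 fold change of all genes at -0.08 in WT and -0.12 in Scnn1b-Tg AMs, where it was 0.00 and -0.02. Depth limits Trem1 in medium (107 to 181 deposited counts) and Hcst (118 to 330 over the 4 groups) most among the 5 genes.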
